A study of Mus musculus with 15 samples.

Results

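The genes described here are 40 genes whose proteins build ribosomes in the nucleolus. They were chosen by name, as a list of mouse symbols, with earlier results of these data known. All 40 were found among the 32939 genes of the count table. All 40 also passed the filter on low counts that left 17404 genes for testing. RNA-seq was done on mouse colonic crypts, the glands of the large intestine that hold its stem cells, in 15 libraries that form 3 groups of 5. All mice were labelled wild type (WT) and carried an adeno-associated virus (AAV) expressing a short hairpin RNA (shRNA). In NL-shGFP the hairpin was the control shGFP, the diet was normal and the liver normal. In FL-shGFP the hairpin was again shGFP, the diet was the CDAA diet (choline-deficient and amino acid-defined) and the liver was fatty. In FL-shAlpl, diet and liver were as in FL-shGFP and the hairpin was shAlpl, against the alkaline phosphatase gene Alpl. The study asked how the state of the liver and its alkaline phosphatase bear on the colonic crypt. Diet and liver state changed together, so they cannot be told apart, and no normal-liver group with shAlpl was analysed here. The sources used here do not give strain, sex, age, the promoter of the hairpin or whether replicates were separate animals, so the p-values measure the spread between libraries.

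A ribosome begins in the nucleolus, where RNA polymerase I copies the ribosomal RNA genes into a long precursor. Small nucleolar RNAs (snoRNAs), carried in particles called snoRNPs, guide the chemical modification and early cutting of that precursor. Large assemblies then fold and trim it into the small and the large ribosomal subunit. Many of these genes are known as targets of the transcription factor MYC, and in the intestine the pathway is known for its high activity in dividing crypt cells.

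The sequence most often named in that connection is the E-box CACGTG, which MYC binds together with its partner MAX and which reads the same on both strands. RefSeq promoter windows (build GRCm38.p6, 250 bases before to 50 bases after an annotated start) matched 35 of the 40 genes. Fbl, Npm1, Bop1, Rrp12 and Rrs1 were not among them. The E-box letters occurred in 8 of the 35 genes, or 22.9%, beside 11.03% of the 11858 tested genes with a window and 8.09% of all 27025 genes in the table. In 6 of the 8 genes the letters lay just after the start, so the share depended on the window. Over the bases before the start alone it was 2 of 35, or 5.71%, beside 9.34% of tested genes. The bases just after the start were found in a GENCODE M21 transcript of the gene for Pes1, Tsr1, Wdr43 and Ltv1. For Nop2, Rrn3, Mybbp1a and Utp20 they were not, so the place of the letters relative to the start is less certain there. The stretches that hold the letters are shown so that their place and flanks can be compared among these 8 genes, with the E-box in capitals, 5′ to 3′ on the strand of the gene, and at most 30 bases each.
Nop2, chr6:125131811-125131840, plus strand, 60 bases before the start: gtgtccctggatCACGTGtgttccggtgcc
Rrn3, chr16:13780472-13780501, plus strand, 215 bases before the start: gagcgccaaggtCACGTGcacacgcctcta
Rrn3, chr16:13780639-13780668, plus strand, 48 bases before the start: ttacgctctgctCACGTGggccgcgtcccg
Pes1, chr11:3963965-3963994, plus strand, after the start: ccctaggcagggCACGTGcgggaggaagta
Tsr1, chr11:74898092-74898121, plus strand, after the start: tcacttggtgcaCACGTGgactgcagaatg
Wdr43, chr17:71616220-71616249, plus strand, after the start: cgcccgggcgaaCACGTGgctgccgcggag
Ltv1, chr10:13193092-13193121, minus strand, after the start: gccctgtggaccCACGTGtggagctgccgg
Mybbp1a, chr11:72441355-72441376, plus strand, after the start: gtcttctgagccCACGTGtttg
Utp20, chr10:88826765-88826789, minus strand, after the start: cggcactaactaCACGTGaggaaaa
These are matches of letters in a reference sequence. Binding was not measured, and a missing match says only that the letters are absent from the window.

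Total counts per library ran from 33.3 M to 41.4 M for NL-shGFP, from 37.5 M to 51.7 M for FL-shGFP and from 42.1 M to 58.6 M for FL-shAlpl. Mitochondrially encoded genes took 33.2% ± 3.99 (SD, n = 5) of the counts of NL-shGFP libraries, 16.7% ± 3.34 of those of FL-shGFP and 20% ± 4.05 of those of FL-shAlpl, and NL-shGFP differed from each fatty-liver group (exact two-sided permutation test, adjusted p = 0.0119 in both). Alpl itself was nearly silent in the crypts, at a mean of 0.00997 CPM (counts scaled to a library of fixed size) for NL-shGFP, 0.429 for FL-shGFP and 0.0433 for FL-shAlpl, and Alpl of the liver was not measured in these libraries. Epithelial markers such as Epcam and Krt8 were present in all libraries, with the 11 markers summing to 10920 CPM or more in each. Among the NL-shGFP libraries, replicates 3 and 4 resembled each other more closely than any other pair, with a median chi-square per gene of 1.59, and replicates 1 and 2 came next at 2.86. Libraries that differed by sampling alone would give 0.455 if each count were 1 molecule, and 0.91 if each molecule had been counted as 2 reads, which the mostly even small counts leave possible. All were counted as separate libraries.

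In crypts of mice with fatty liver, the nucleolar genes were lower than in crypts of mice with normal liver. Of the 40 genes, 31 fell in FL-shGFP against NL-shGFP, none rose and 9 did not pass the test (edgeR quasi-likelihood test, adjusted p below 0.05 over all 17404 genes), where 21.6% of all tested genes fell, 25.1% rose and 46.7% were called in all. All 40 log2 fold changes were negative, with a median of -0.80 and a range from -1.36 for Gar1 to -0.30 for Rrn3. The median over all tested genes was -0.0016. With library totals as the only scaling, 21 of the 40 were called lower and none higher, and higher genes made up 65.8% of all called genes in place of 53.8%. In 30 of the 40 genes every FL-shGFP library lay below every NL-shGFP library, which was so for 16.2% of all tested genes. Of the 31 lower calls, 10 were lost in at least 1 of 21 alternative analyses, those of Nhp2 and Rrn3 in 14 each, Utp15 in 11, Polr1c in 10, Nip7 in 4, Noc4l, Nop14 and Tsr1 in 2 each and Fbl and Nop10 in 1 each. These are bulk measurements of crypt preparations, in which fewer cells of a type and less RNA per cell cannot be told apart.

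With shAlpl the same genes stood higher again. Against FL-shGFP, 39 of the 40 rose in FL-shAlpl, none fell and Taf1d alone did not pass the test, where 18% of all tested genes rose and 17.9% fell. The median log2 fold change was 0.95, the range ran from 0.19 for Taf1d to 1.37 for Dkc1, and the median over all tested genes was -0.0037. In 20 genes all FL-shAlpl libraries lay above all FL-shGFP libraries, beside 7.63% of all tested genes. Of the 39 higher calls, 7 were lost in at least 1 of the 21 alternatives, those of Pes1 and Rrp12 in 7 each, Noc4l in 6, Nop14 and Mybbp1a in 5 each and Npm1 and Polr1c in 4 each. All 7 were lost with only the 2 groups fitted, without FL-shAlpl replicate 4 and without FL-shGFP replicate 1. Both comparisons use the 5 FL-shGFP libraries, so their opposite signs are not independent of each other. By gene, 31 were called lower in the first comparison and higher in the second, 8 were called in the second alone and Taf1d in neither.

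FL-shAlpl was also set against NL-shGFP, groups that differ in diet, liver and hairpin at once. None of the 40 genes was called in either direction by edgeR, beside 9.31% of all tested genes called higher and 8.12% lower (17.4% in all), and DESeq2 called none of them either. The background of 3035 called genes was itself unsteady, at 1979 without FL-shAlpl replicate 2 and 1340 with the close NL-shGFP libraries summed. In none of the 40 were the groups without overlap, beside 7.54% of all tested genes wholly higher and 7.01% wholly lower. At an unadjusted p below 0.05 edgeR gave 1 higher gene, Ddx21 (log2 fold change 0.41, adjusted p = 0.116), and no lower gene. The median over the 40 genes was 0.10, with values from -0.27 for Taf1d to 0.49 for Nhp2, beside a median of 0.05 over all tested genes. With library totals as the only scaling, the median over all tested genes moved to 0.19 and that over the 40 genes to 0.24, still with none of the 40 called. Higher genes made up 53.4% of all called genes, 75.0% with library totals and 42.3% with upper-quartile factors. Without FL-shAlpl replicate 1 the median over the 40 genes was -0.05. A test that is not passed does not show that the levels are alike.

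**Figure D1:**
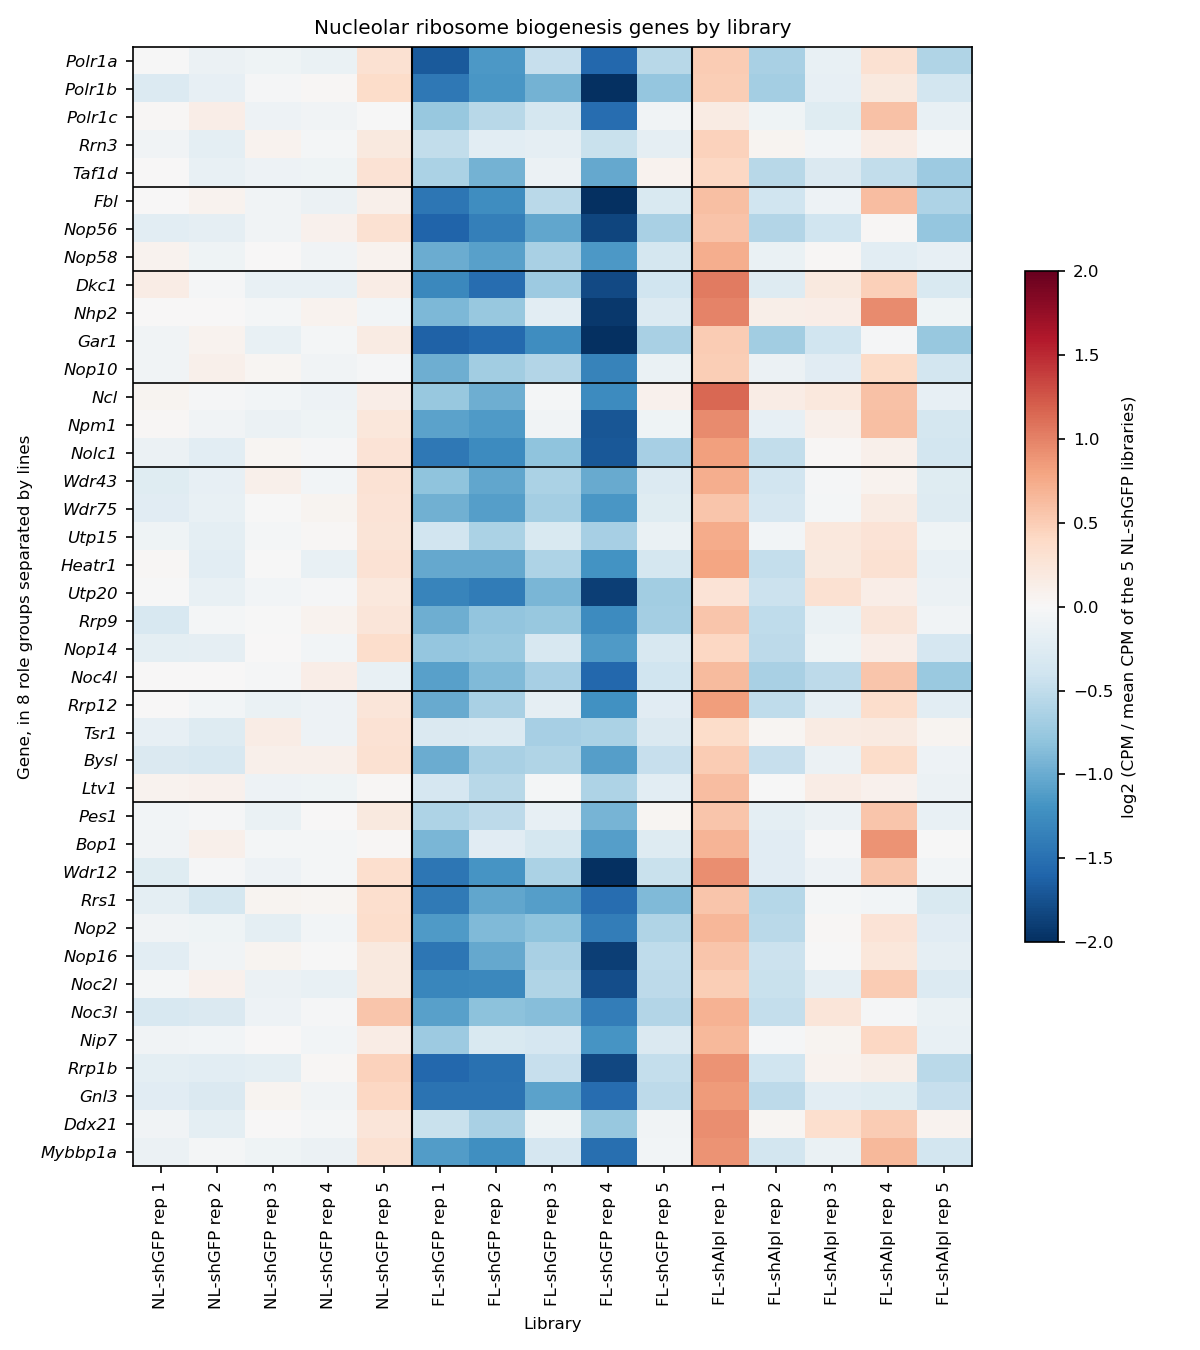
Level of each of the 40 genes (rows, in 8 role groups separated by lines) in each of the 15 libraries (columns), as log2 of CPM over the mean of the 5 NL-shGFP libraries, with blue for lower and red for higher. FL-shGFP columns are mostly blue, most deeply in replicate 4, and FL-shAlpl replicates 1 and 4 are mostly red.

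**Figure D2:**
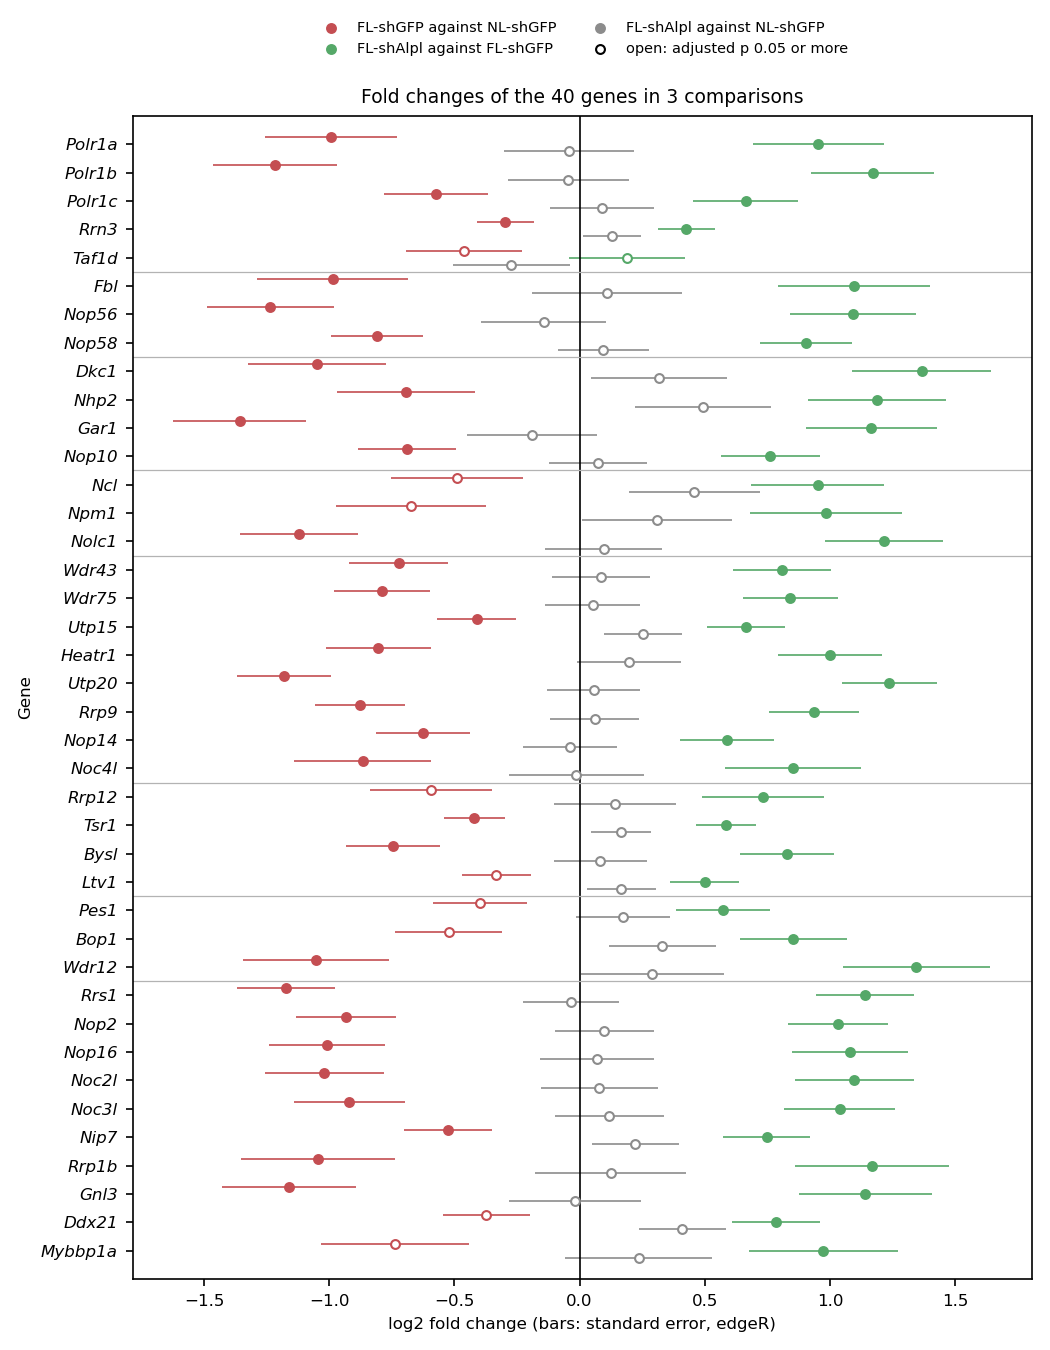
Log2 fold change with its standard error for the 40 genes (rows) in FL-shGFP against NL-shGFP (red), FL-shAlpl against FL-shGFP (green) and FL-shAlpl against NL-shGFP (grey), filled where the edgeR adjusted p was below 0.05. Red points lie left of 0 for all 40 genes, green points lie right of it, and all grey points are open.

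Summed over the 40 genes, the mean level was 2518 ± 214 CPM (SD, n = 5) for NL-shGFP, 1555 ± 532 for FL-shGFP and 2958 ± 981 for FL-shAlpl, or 0.243%, 0.158% and 0.316% of all counts. By library the sums were 2462, 2401, 2420, 2409 and 2899 CPM for NL-shGFP, against 1296, 1285, 2021, 963.1 and 2208 CPM for FL-shGFP, and against 4451, 2222, 2600, 3417 and 2100 CPM for FL-shAlpl, for replicates 1 to 5. All FL-shGFP sums were below all NL-shGFP sums, while the lowest FL-shAlpl sum lay below the highest FL-shGFP sum. FL-shAlpl spanned the NL-shGFP range on both sides.

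Within a group, many of the 40 genes were highest or lowest in the same library. The same counts and spreads were not taken over all tested genes. Over 13485 genes, FL-shGFP replicates 4 and 5 were the least alike pair within any group, with a median chi-square per gene of 50.5. Replicate 4 was the lowest FL-shGFP library in 36 of the 40 genes and replicate 5 the highest in 30. Replicate 1 was the highest FL-shAlpl library in 34 genes, and replicates 2 and 5 were the lowest in 22 and 15. Replicate 5 was the highest NL-shGFP library in 34 genes. The spread within a group, as the median coefficient of variation over the 40 genes, was 11.7% for NL-shGFP, 30% for FL-shGFP and 32.2% for FL-shAlpl.

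The RNA polymerase I machinery makes the precursor RNA. Of its 5 genes on the list, 4 fell in FL-shGFP and 4 rose with shAlpl. Beside the counts of this and each later role group, 21.6% of all tested genes fell in FL-shGFP and 18% rose with shAlpl. Without overlap, 16.2% of all tested genes lay lower in FL-shGFP than in NL-shGFP, and 7.63% lay higher in FL-shAlpl than in FL-shGFP. Polr1b, the second-largest catalytic subunit, was at 21.4, 23.1, 25.4, 26.2 and 33.4 CPM in NL-shGFP, at 9.61, 11.6, 13.5, 5.80 and 15.1 CPM in FL-shGFP, and at 36.4, 16.2, 23.2, 29.6 and 20.1 CPM in FL-shAlpl (here and below for replicates 1 to 5 in order). All FL-shGFP libraries lay below both other groups. The log2 fold changes were -1.22 ± 0.25 (standard error, here and below) in FL-shGFP against NL-shGFP (edgeR adjusted p = 0.00121) and 1.17 ± 0.25 in FL-shAlpl against FL-shGFP (adjusted p = 0.00267).

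Polr1a, the largest subunit, which holds the active site with Polr1b, was at 34.2, 31.7, 32.6, 31.7 and 42.6 CPM in NL-shGFP, at 10.7, 15.5, 25.2, 11.6 and 23.6 CPM in FL-shGFP, and at 48.9, 22.1, 31.3, 42.7 and 22.9 CPM in FL-shAlpl. FL-shGFP did not overlap NL-shGFP, and its replicates 3 and 5 overlapped the 2 lowest FL-shAlpl libraries. Its log2 fold changes were -0.99 ± 0.26 (edgeR adjusted p = 0.00675) and 0.95 ± 0.26 (adjusted p = 0.0122). Polr1c, a subunit shared with RNA polymerase III, fell by 0.57 on the log2 scale and rose by 0.66. Rrn3, which brings the polymerase to the ribosomal RNA promoter and whose window holds the E-box at 2 places, had the least negative change of the 40, at -0.30 ± 0.11 (adjusted p = 0.0446), and rose with shAlpl by 0.43 ± 0.11 (adjusted p = 0.0106). Taf1d, part of the promoter selectivity factor SL1, passed no test, with -0.46 (adjusted p = 0.114) and 0.19 (adjusted p = 0.549). On the opposite strand 4931406C07Rik shares 2.63% of the exonic bases of Taf1d. It had up to 14306 counts in a library, and the lowest Taf1d count was 766. Shared reads could not be told apart without strand. The lower calls of Polr1c and Rrn3 were lost in 10 and 14 of 21 alternative analyses, with adjusted p up to 0.119 and 0.22, and the rise of Polr1c was lost in 4, with adjusted p up to 0.0694.

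Box C/D snoRNPs guide the methylation of ribosomal RNA. All 3 of their core genes on the list, Nop56, Nop58 and Fbl, fell in FL-shGFP and rose with shAlpl. Nop56, a scaffold protein of the particle, was at 48.5, 49.99, 53.4, 59.9 and 69.9 CPM in NL-shGFP, at 18.6, 21.8, 27.4, 15.9 and 35.8 CPM in FL-shGFP, and at 83.9, 37.7, 43.0, 57.2 and 33.0 CPM in FL-shAlpl. FL-shGFP lay wholly below NL-shGFP, and FL-shAlpl replicate 5 was below FL-shGFP replicate 5. The log2 fold changes were -1.24 ± 0.25 (edgeR adjusted p = 0.00142) and 1.09 ± 0.25 (adjusted p = 0.00495).

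Nop58, the other scaffold protein, was at 76.4, 68.7, 73.1, 69.2 and 76.6 CPM in NL-shGFP, at 36.6, 34.5, 46.4, 32.8 and 57.4 CPM in FL-shGFP, and at 120.8, 66.7, 73.9, 62.6 and 64.7 CPM in FL-shAlpl. Here FL-shGFP was separate from both other groups, and FL-shAlpl replicate 1 stood far above the rest. Nop58 fell by 0.81 ± 0.18 on the log2 scale (edgeR adjusted p = 0.00244) and rose by 0.90 ± 0.18 (adjusted p = 0.00213). Fbl, the methyltransferase fibrillarin, changed by -0.99 ± 0.30 (adjusted p = 0.0155) and 1.10 ± 0.30 (adjusted p = 0.0126).

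Box H/ACA snoRNPs convert uridine to pseudouridine. Their 4 core genes all fell in FL-shGFP without overlap with NL-shGFP, and all 4 rose with shAlpl. Gar1, a core protein of the particle, was at 29.7, 32.6, 28.2, 30.5 and 35.0 CPM in NL-shGFP, at 10.2, 10.6, 13.2, 6.87 and 19.9 CPM in FL-shGFP, and at 44.3, 19.3, 23.7, 30.8 and 18.4 CPM in FL-shAlpl. FL-shGFP replicate 5 lay within the FL-shAlpl range and the other 4 below it. Gar1 had the most negative change of the 40 genes, at -1.36 ± 0.27 (edgeR adjusted p = 0.00096), and rose by 1.17 ± 0.26 with shAlpl (adjusted p = 0.0042).

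Dkc1, the pseudouridine synthase dyskerin, was at 39.6, 35.3, 32.4, 32.3 and 39.8 CPM in NL-shGFP, at 14.7, 12.5, 21.7, 10.3 and 27.4 CPM in FL-shGFP, and at 73.3, 30.2, 41.2, 49.7 and 29.1 CPM in FL-shAlpl. FL-shGFP was below both other groups throughout. Its log2 fold changes were -1.05 ± 0.28 (edgeR adjusted p = 0.00658) and 1.37 ± 0.28 (adjusted p = 0.00232).

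Nhp2, another core protein, was at 52.7, 52.4, 50.7, 55 and 50.6 CPM in NL-shGFP, at 28.1, 30.9, 45.3, 13.8 and 43.4 CPM in FL-shGFP, and at 103.5, 56.9, 57.1, 100.9 and 49.4 CPM in FL-shAlpl. NL-shGFP was tight, and FL-shGFP replicates 3 and 5 came close to it without reaching it. Of the genes called lower, Nhp2 had the adjusted p nearest 0.05, with -0.69 ± 0.27 (edgeR adjusted p = 0.0493), and that call was lost in 14 of 21 alternative analyses, among them each omission of 1 library except FL-shGFP replicate 3 or 5. The rise of Nhp2 with shAlpl was 1.19 ± 0.28 (adjusted p = 0.00509), a call that each of the 21 alternatives kept. Nop10, the smallest core protein, fell by 0.69 and rose by 0.76 on the log2 scale.

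Nucleolin (Ncl), nucleophosmin (Npm1) and the snoRNP chaperone Nolc1 are abundant nucleolar proteins. Per length, Npm1 was the highest of the 40 genes at a mean of 181.5 FPKM (a level scaled by gene length and library size), and Ncl (47.3 FPKM) and Nhp2 (46.9 FPKM) came next, with ranges over libraries that overlapped. Of the 3 genes of the group, Nolc1 alone fell in FL-shGFP, and all 3 rose with shAlpl.

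Nolc1 was at 57.6, 54.0, 64.6, 61.5 and 75.4 CPM in NL-shGFP, at 23.2, 26.2, 35.7, 19.4 and 39.3 CPM in FL-shGFP, and at 110.7, 44.7, 63.6, 66.9 and 48.5 CPM in FL-shAlpl. FL-shGFP lay wholly below both other groups. The log2 fold changes were -1.12 ± 0.24 (edgeR adjusted p = 0.00163) and 1.22 ± 0.24 (adjusted p = 0.00177).

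Ncl was at 474.2, 448.4, 438.6, 426.4 and 502.0 CPM in NL-shGFP, at 271.7, 232.8, 447.8, 190.6 and 485.2 CPM in FL-shGFP, and at 1017, 509.0, 529.4, 684.6 and 406.9 CPM in FL-shAlpl. FL-shGFP replicates 3 and 5 stood at the NL-shGFP level and the other 3 well below it. The log2 fold change of Ncl in FL-shGFP was -0.49 ± 0.26 (edgeR adjusted p = 0.135), and without FL-shGFP replicate 5 the adjusted p was 0.0407. With shAlpl it rose by 0.95 ± 0.27 (adjusted p = 0.0128).

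Npm1 was at 501.4, 473.5, 455.7, 464.1 and 580.3 CPM in NL-shGFP, at 235.8, 224.8, 472.5, 150.5 and 467.6 CPM in FL-shGFP, and at 951.2, 443.3, 531.2, 753.1 and 389.7 CPM in FL-shAlpl. As for Ncl, FL-shGFP replicates 3 and 5 overlapped NL-shGFP and replicates 1, 2 and 4 did not. The log2 fold changes of Npm1 were -0.67 ± 0.30 (edgeR adjusted p = 0.0781, and 0.0307 and 0.029 without FL-shGFP replicate 3 or 5) and 0.98 ± 0.30 (adjusted p = 0.0208). Its rise was not called with only the 2 groups fitted, nor without FL-shAlpl replicate 1 or 4 or FL-shGFP replicate 1, with adjusted p from 0.0502 to 0.0612. Npm1 has 8 near-identical copies in the table, which together hold 6.05% as many counts as Npm1, and how reads were shared among them is not given in the sources used here.

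**Figure D3:**
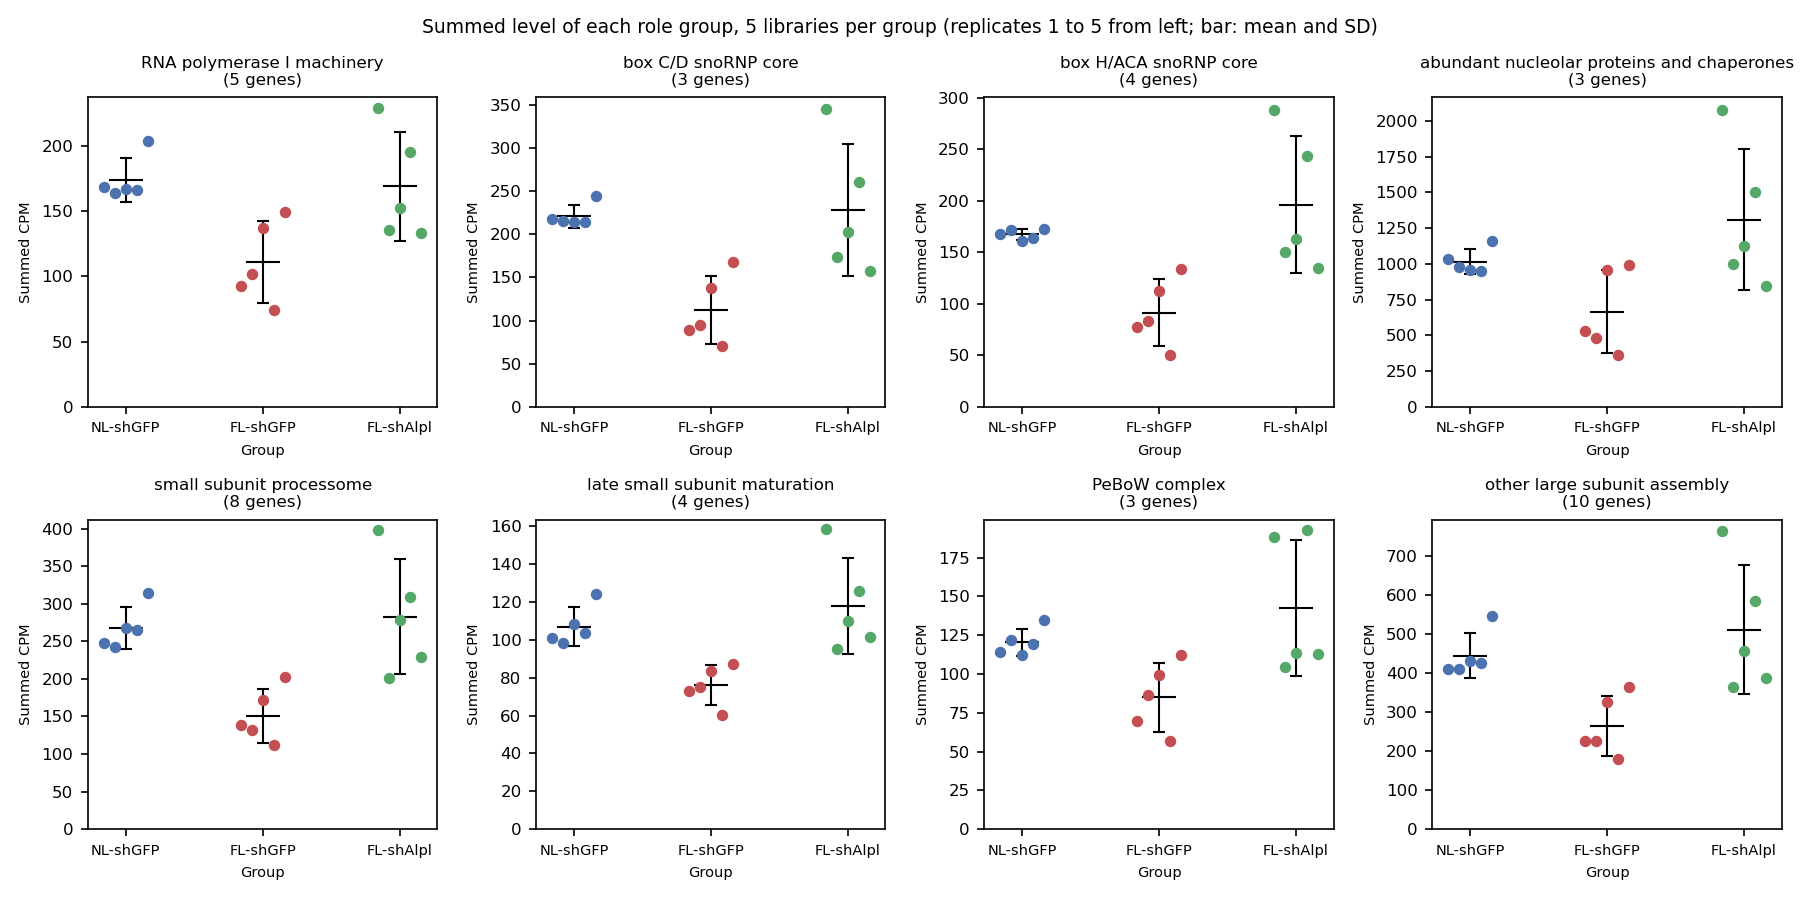
Summed CPM of each of the 8 role groups (panels) in the 5 libraries of each group, with replicates 1 to 5 from left to right, the mean (bar) and the SD (whiskers), on axes that start at 0. FL-shGFP has the lowest mean in each panel, and FL-shAlpl is widely spread, with replicates 1 and 4 at the top of the group.

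The small subunit processome is the large particle in which the precursor of the small subunit folds. All 8 of its genes on the list fell in FL-shGFP, 7 of them without overlap with NL-shGFP, and all 8 rose with shAlpl. Utp20, a scaffold protein of the particle, was at 64.5, 58.0, 62.0, 63.4 and 75.2 CPM in NL-shGFP, at 25.9, 24.5, 34.5, 17.6 and 39.9 CPM in FL-shGFP, and at 78.2, 47.9, 79.5, 70.6 and 59.8 CPM in FL-shAlpl. The 5 FL-shGFP values were the 5 lowest of the 15. Utp20 had the smallest adjusted p of the 40 genes in both comparisons, with -1.18 ± 0.19 (edgeR adjusted p = 0.00022) and 1.24 ± 0.19 (adjusted p = 0.000358).

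Rrp9, a protein of the U3 snoRNP, was at 12.6, 15.3, 15.6, 16.5 and 18.5 CPM in NL-shGFP, at 7.99, 9.10, 9.29, 6.55 and 9.77 CPM in FL-shGFP, and at 23.1, 11.03, 14.3, 18.5 and 15.01 CPM in FL-shAlpl. Again FL-shGFP lay wholly below both other groups. Rrp9 fell by 0.88 ± 0.18 on the log2 scale (edgeR adjusted p = 0.00125) and rose by 0.94 ± 0.18 (adjusted p = 0.00151). The other 6 genes are Heatr1, Wdr43, Wdr75 and Utp15, of a subcomplex that binds the precursor early, and Nop14 and Noc4l, which partner each other. Their changes in FL-shGFP ran from -0.41 for Utp15 to -0.87 for Noc4l, and those with shAlpl from 0.59 for Nop14 to 1.0004 for Heatr1. The lower call of Utp15 was lost in 11 of 21 alternatives, with adjusted p up to 0.183. The rises of Noc4l and Nop14 were lost in 6 and 5 of them, with adjusted p up to 0.0795 and 0.0704.

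Late maturation of the small subunit was represented by Tsr1, Bysl, Rrp12 and Ltv1, which help to export and finish the particle. Of these, Tsr1 and Bysl fell in FL-shGFP and all 4 rose with shAlpl. Bysl was at 20.1, 19.8, 26.4, 26.4 and 30.5 CPM in NL-shGFP, at 12.4, 15.7, 16.2, 11.4 and 17.8 CPM in FL-shGFP, and at 35.1, 17.9, 22.7, 31.8 and 22.9 CPM in FL-shAlpl. FL-shGFP stayed below both other groups, though its replicate 5 and FL-shAlpl replicate 2 were almost level. Its log2 fold changes were -0.75 ± 0.19 (edgeR adjusted p = 0.00497) and 0.83 ± 0.19 (adjusted p = 0.00418). On the opposite strand Ccnd3 shares 9.37% of the exonic bases of Bysl and has 177% as many counts, so shared reads could not be told apart without strand.

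Tsr1 was at 28.8, 27.0, 35.6, 30.1 and 39.4 CPM in NL-shGFP, at 26.4, 26.5, 20.3, 20.7 and 26.2 CPM in FL-shGFP, and at 41.4, 32.9, 36.1, 36.3 and 33.5 CPM in FL-shAlpl. Its FL-shGFP libraries lay below all others, but replicates 1, 2 and 5 only just below NL-shGFP replicate 2. The changes were small, at -0.42 ± 0.12 (edgeR adjusted p = 0.0105) and 0.59 ± 0.12 (adjusted p = 0.00239). The antisense partner Srr covers 32.3% of the exonic bases of Tsr1 and has 41.9% as many counts. Rrp12 and Ltv1 did not pass the test in FL-shGFP, with -0.59 (adjusted p = 0.0568) and -0.33 (adjusted p = 0.0586). The rise of Rrp12 with shAlpl was lost in 7 of 21 alternatives, among them the replicate block and the fit of the 2 groups alone, with adjusted p up to 0.0924.

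The PeBoW complex of Pes1, Bop1 and Wdr12 is needed to process the large subunit RNA. Wdr12 fell in FL-shGFP, Pes1 and Bop1 did not pass the test, and all 3 rose with shAlpl. Wdr12 was at 11.8, 13.7, 12.98, 13.6 and 17.6 CPM in NL-shGFP, at 5.13, 6.14, 8.95, 2.98 and 10.2 CPM in FL-shGFP, and at 26.5, 11.95, 13, 20.3 and 13.3 CPM in FL-shAlpl. FL-shGFP was separate from both other groups, with replicate 4 the lowest by far. The log2 fold changes were -1.05 ± 0.29 (edgeR adjusted p = 0.00859) and 1.35 ± 0.29 (adjusted p = 0.00326). A stretch near-identical to Wdr12 lies in Pms1, which has 24.9% as many counts.

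Bop1 was at 38.7, 43.6, 39.3, 39.6 and 41.3 CPM in NL-shGFP, at 21.5, 34.7, 31.8, 18.9 and 34.0 CPM in FL-shGFP, and at 64.6, 34.6, 39.7, 75.4 and 40.4 CPM in FL-shAlpl. All FL-shGFP libraries were below all NL-shGFP libraries, and replicates 1 and 4 were far lower than the other 3. Its log2 fold change in FL-shGFP was -0.52 ± 0.21 (edgeR adjusted p = 0.0558, and 0.0439 and 0.041 without FL-shGFP replicate 2 or 5), and its rise with shAlpl was 0.85 ± 0.21 (adjusted p = 0.00734). Pes1 had -0.40 (adjusted p = 0.0905) and rose by 0.57 (adjusted p = 0.027), a call lost in 7 of 21 alternatives, among them the replicate block and the fit of the 2 groups alone, with adjusted p up to 0.0773.

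The other 10 genes were grouped here under assembly of the large subunit, though not all are known for that step alone. Of these, 8 fell in FL-shGFP, all 10 rose with shAlpl, and in 8 of the 10 the FL-shAlpl libraries lay wholly above FL-shGFP. Rrs1, which helps to place the 5S RNA particle, was at 22.2, 19.9, 26.5, 26.2 and 32.1 CPM in NL-shGFP, at 9.52, 12.3, 11.8, 8.84 and 13.8 CPM in FL-shGFP, and at 37.2, 17.1, 24.7, 24.4 and 20.7 CPM in FL-shAlpl. No FL-shGFP library reached any library of the other groups. Rrs1 fell by 1.17 ± 0.20 on the log2 scale (edgeR adjusted p = 0.000289) and rose by 1.14 ± 0.19 (adjusted p = 0.000746).

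Nop2, a methyltransferase of the large subunit RNA whose promoter window holds an E-box before the start, was at 32.6, 32.1, 29.8, 32.8 and 43.5 CPM in NL-shGFP, at 15.5, 18.6, 19.6, 13.1 and 22.5 CPM in FL-shGFP, and at 54.2, 23.4, 34.9, 41.1 and 29.2 CPM in FL-shAlpl. The groups again did not overlap, with 22.5 CPM in the highest FL-shGFP library against 23.4 CPM in the lowest FL-shAlpl library. Its log2 fold changes were -0.93 ± 0.20 (edgeR adjusted p = 0.00177) and 1.03 ± 0.20 (adjusted p = 0.0017).

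Mybbp1a, a MYB-binding nucleolar protein, was at 94.0, 98.8, 95.4, 93.6 and 125.9 CPM in NL-shGFP, at 47.0, 43.5, 80.4, 35.6 and 97.9 CPM in FL-shGFP, and at 188.6, 79.1, 92.8, 158.6 and 78.9 CPM in FL-shAlpl. FL-shGFP replicate 5 stood at the NL-shGFP level and the other 4 below it. Of the genes not called in FL-shGFP, Mybbp1a had the adjusted p nearest 0.05, at -0.74 ± 0.30 (edgeR adjusted p = 0.0519, and 0.0124 without FL-shGFP replicate 5 and 0.04 without replicate 3). Its rise with shAlpl was 0.97 ± 0.30 (adjusted p = 0.0199), and that call was lost with only the 2 groups fitted and without FL-shAlpl replicate 1 or 4 or FL-shGFP replicate 1 or 4, with adjusted p from 0.0516 to 0.0603.

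The remaining genes of this group were Gnl3 (nucleostemin, a GTPase of stem and dividing cells), Noc2l and Noc3l (a pair of export factors), Nop16, Nip7, Rrp1b and the RNA helicase Ddx21. Of the 7, 6 fell in FL-shGFP, from -0.53 for Nip7 to -1.16 for Gnl3. The exception was Ddx21, with -0.37 (edgeR adjusted p = 0.0903). With shAlpl the 7 rose by 0.75 for Nip7 to 1.17 for Rrp1b.

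Many snoRNAs are themselves made from introns, and several of these 40 genes are hosts. In the GENCODE M21 annotation 8 of the 40 genes, or 20%, contain 29 annotated snoRNA genes, beside 1.54% of 17327 tested genes. The hosts are Taf1d with 8 snoRNA genes, Nop56 with 5, Nop58 with 4, Gnl3, Ncl and Wdr43 with 3 each, Tsr1 with 2 and Dkc1 with 1. Taf1d, the host of the most snoRNA genes, is also the gene that passed no test, and a link between the hosting and the missing call was not tested. The libraries were enriched for mRNA, and snoRNAs were not analysed here.

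Beyond the 40 genes, 97 other genes of the same pathway were listed, and most moved the same way with smaller changes. In FL-shGFP 57 of the 97 fell, 4 rose and 36 did not pass the test, with a median log2 fold change of -0.48. Of all tested genes 21.6% fell and 25.1% rose there. With shAlpl 68 rose, 3 fell and 26 did not pass, with a median of 0.61, where 18% of all tested genes rose and 17.9% fell. Against NL-shGFP, FL-shAlpl had 4 of the 97 higher and 1 lower, both smaller shares than the 9.31% and 8.12% of all tested genes. The same shares of all tested genes stand beside the counts of the single lists below.

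Of the 8 factors that assemble snoRNPs, 7 fell in FL-shGFP and 6 rose with shAlpl. Among them Znhit6 changed by -1.10 ± 0.19 (edgeR adjusted p = 0.000392) and 0.98 ± 0.19 (adjusted p = 0.0017). Ruvbl1, an ATPase of the assembly machinery, changed by -1.07 ± 0.28 (adjusted p = 0.00601) and 1.11 ± 0.28 (adjusted p = 0.0074). Of 35 other processome genes 20 fell in FL-shGFP and 28 rose with shAlpl, with Utp6 at -0.64 (adjusted p = 0.00122) and 0.74 (adjusted p = 0.000925) and Utp11 at -0.64 (adjusted p = 0.00106) and 0.43 (adjusted p = 0.0177).

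Of 39 other large subunit genes 23 fell and 2 rose in FL-shGFP. Nifk changed by -0.89 ± 0.16 (edgeR adjusted p = 0.000421) and 1.004 ± 0.16 (adjusted p = 0.000404), and Nol9, a kinase that acts on the precursor RNA, by -0.86 ± 0.16 (adjusted p = 0.000641) and 0.86 ± 0.16 (adjusted p = 0.00124). The 2 that rose, Eif6 and Sbds, act at the last step in the cytoplasm, where SBDS helps to release eIF6 from the large subunit. Eif6 rose by 0.69 ± 0.12 (adjusted p = 0.000429) and fell by 0.33 with shAlpl (adjusted p = 0.0403). Sbds rose by 0.58 ± 0.12 (adjusted p = 0.00136) and fell by 0.46 with shAlpl (adjusted p = 0.00906).

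Riok3, a kinase of the late small subunit in the cytoplasm, went the same way as Eif6 and Sbds, with 0.71 ± 0.10 (edgeR adjusted p = 8.63e-05) and -0.56 ± 0.10 (adjusted p = 0.000922), and none of the other 4 genes of its list passed the test in FL-shGFP. In the polymerase I list 7 of 10 fell, led by Polr1g at -1.13 ± 0.22 (adjusted p = 0.000951), which rose by 1.28 ± 0.22 with shAlpl (adjusted p = 0.000819). The SL1 subunits parted, since Taf1a fell in FL-shGFP by 0.57 (adjusted p = 0.0035) and Taf1b rose by 0.53 (adjusted p = 0.00792). Neither passed the test with shAlpl, at -0.15 and 0.0017, and against NL-shGFP Taf1a was lower by -0.72 (adjusted p = 0.00258) and Taf1b higher by 0.54 (adjusted p = 0.0196).

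The MYC network is the best-known regulator of this pathway. Myc was at 36.3, 36.8, 44.6, 44.7 and 67.1 CPM in NL-shGFP, at 15.1, 12.9, 8.91, 11.1 and 17.5 CPM in FL-shGFP, and at 55.9, 40.9, 44.5, 32.1 and 39.7 CPM in FL-shAlpl. FL-shGFP was far below both other groups, which overlapped each other. The log2 fold changes of Myc were -1.81 ± 0.21 (edgeR adjusted p = 2.23e-05) and 1.70 ± 0.21 (adjusted p = 8.7e-05), and -0.11 ± 0.20 in FL-shAlpl against NL-shGFP (adjusted p = 0.765). In FL-shGFP the order of libraries by Myc differed from that by the sum of the 40 genes in the place of replicate 3 alone. It had the least Myc of its group and the second-highest sum. In FL-shAlpl the orders differed in the place of replicate 4 alone, again with the least Myc and the second-highest sum. In NL-shGFP replicate 5 was highest in both, and the order of the other libraries differed. A link between Myc and the 40 genes was not tested.

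Mycl fell by 1.09 ± 0.32 (edgeR adjusted p = 0.0117) and rose with shAlpl by 1.29 ± 0.32 (adjusted p = 0.00673). Mycn did not pass the test in either comparison, at 0.41 and 0.91, but FL-shAlpl exceeded NL-shGFP in it by 1.32 ± 0.39 (adjusted p = 0.0287). Max, the partner that MYC needs to bind DNA, rose in FL-shGFP by 1.29 ± 0.25 (adjusted p = 0.000797). Max was at 104.0, 92.8, 92.8, 96.2 and 82.8 CPM in NL-shGFP, at 285.6, 262.1, 150.7, 341.6 and 107.8 CPM in FL-shGFP, and at 112.1, 174.8, 145.7, 117.7 and 153.0 CPM in FL-shAlpl. The FL-shGFP replicates with the most Max, 4, 1 and 2, were the 3 with the lowest sums of the 40 genes.

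With shAlpl Max fell by 0.71 ± 0.24 (edgeR adjusted p = 0.0337), a call lost in 11 of 21 alternatives with adjusted p up to 0.107. Mlx, the partner of a parallel branch of the network, rose in FL-shGFP by 0.52 ± 0.13 (adjusted p = 0.00375) and had -0.15 with shAlpl. Of the antagonists that compete for Max, Mxi1 had 0.47 (adjusted p = 0.0521) and fell with shAlpl by 0.53 (adjusted p = 0.0403, lost in 11 of 21 alternatives), and Mxd1 had 0.95 (adjusted p = 0.0791) and -1.10 (adjusted p = 0.0563). Mxd3 (-0.46 and 0.93), Mxd4 (-0.21 and -0.06), Mnt (-0.04 and -0.24) and Mga (-0.33 and 0.26) passed neither test.

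Disturbed ribosome assembly is known to free the ribosomal proteins RPL5 and RPL11, which bind MDM2 and so spare p53. Of the 9 listed genes of that response and of ribosomal RNA gene silencing, 2 rose and 3 fell in FL-shGFP, shares close to the 25.1% and 21.6% of all tested genes. With shAlpl 5 rose, 3 fell and 1 did not pass, beside 18% and 17.9% of all tested genes. Trp53, which encodes p53, was at 41.1, 42.0, 40.3, 43.3 and 54.3 CPM in NL-shGFP, at 16.7, 20.1, 23.5, 13.3 and 32.8 CPM in FL-shGFP, and at 64.1, 31.5, 40.4, 62.6 and 35.6 CPM in FL-shAlpl. FL-shGFP did not overlap NL-shGFP, and its replicate 5 exceeded FL-shAlpl replicate 2. Trp53 RNA fell by 1.05 ± 0.24 (edgeR adjusted p = 0.0025) and rose by 1.14 ± 0.24 (adjusted p = 0.00264).

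Cdkn1a, the cell-cycle inhibitor p21 and a classic p53 target, went the other way at 1.22 ± 0.33 (edgeR adjusted p = 0.00784) and -1.37 ± 0.33 (adjusted p = 0.00651). Mdm2 rose by 0.26 ± 0.10 (adjusted p = 0.0411) and fell by 0.56 ± 0.10 with shAlpl (adjusted p = 0.000996). Rpl5 fell by 0.59 (adjusted p = 0.0295) and Rrp8, part of a silencing complex, by 0.61 (adjusted p = 0.0219), and they rose with shAlpl by 0.71 and 0.85. Rpl11, Sirt7, Kdm2b and Baz2a did not pass the test in FL-shGFP, with adjusted p from 0.0579 for Rpl11 to 0.163 for Kdm2b. With shAlpl Rpl11 rose by 0.60 (adjusted p = 0.0172) and Kdm2b by 0.71 (adjusted p = 0.0135), Sirt7 fell by 0.35 (adjusted p = 0.00719) and Baz2a had -0.07 (adjusted p = 0.624).

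**Figure D4:**
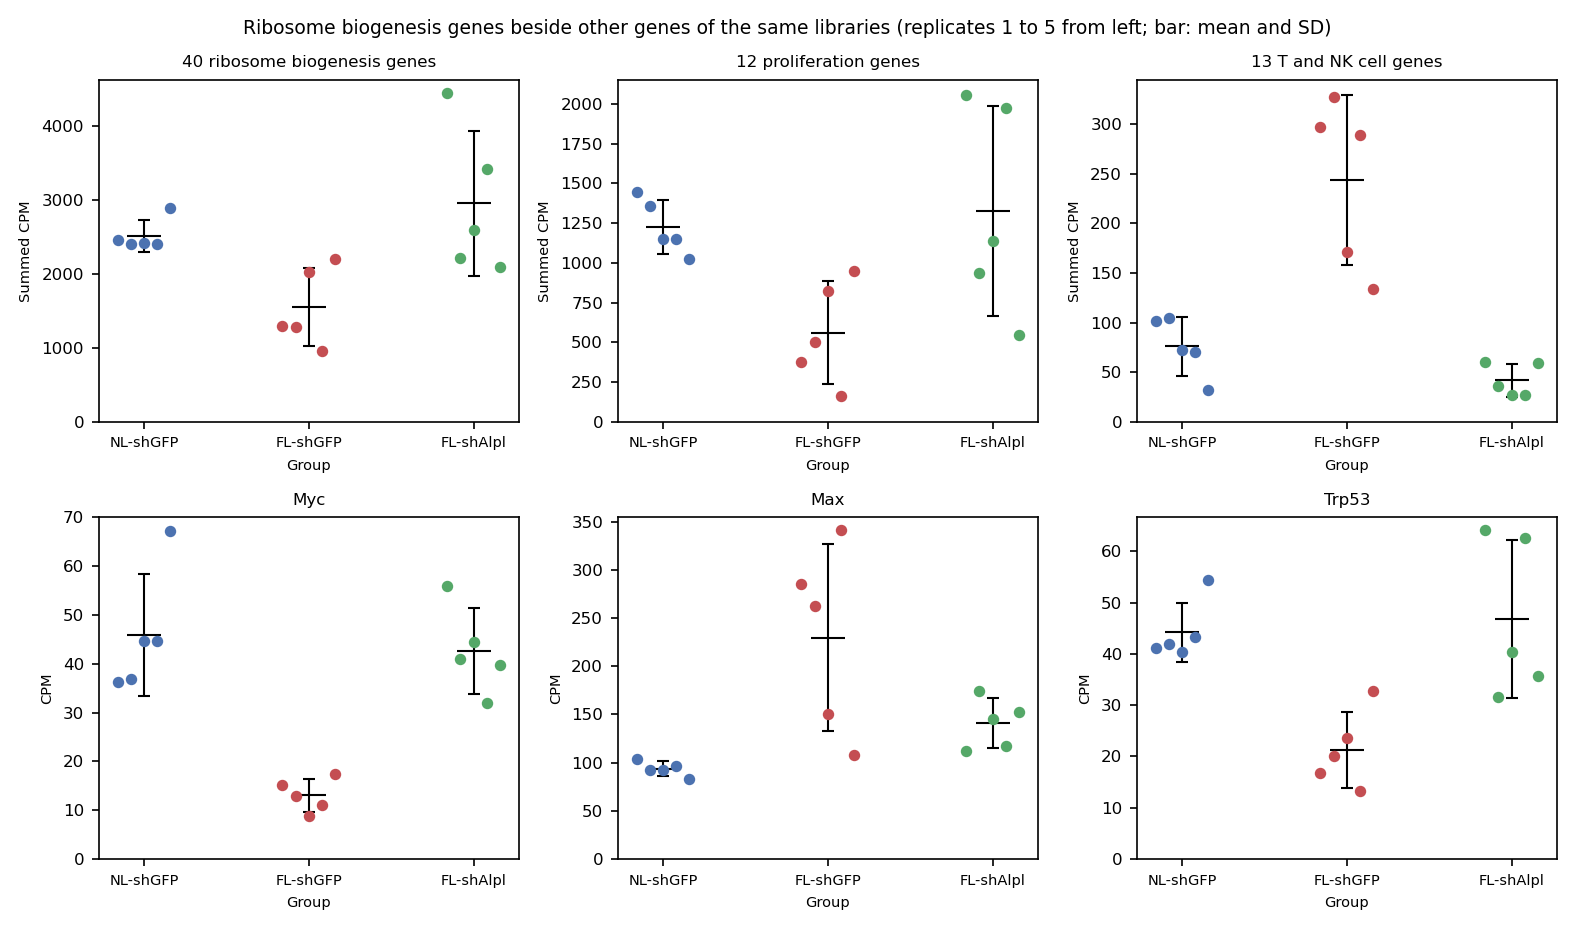
Summed CPM of the 40 genes, of 12 proliferation genes and of 13 T and NK cell genes (top), and CPM of Myc, Max and Trp53 (bottom), in the 5 libraries of each group with replicates 1 to 5 from left, mean and SD. In FL-shGFP the sum of the 40 genes, Myc and Trp53 are low, while the T and NK cell genes lie above both other groups in every library.

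Markers of other cells and states moved with the same groups. Proliferation genes such as Mki67 and Pcna fell in FL-shGFP in 6 of 12 cases, beside 21.6% of all tested genes. With shAlpl 7 of the 12 rose, beside 18% of all tested genes. Their median log2 fold changes were -1.18 and 1.30. None of the 12 was called in FL-shAlpl against NL-shGFP, beside 17.4% of all tested genes. The sum of the 12 was 1027 to 1446 CPM for NL-shGFP, 161.3 to 946.3 CPM for FL-shGFP and 544.5 to 2056 CPM for FL-shAlpl. In FL-shAlpl the 5 libraries had the same order by this sum as by the sum of the 40 genes, and in FL-shGFP the orders differed in replicates 1 and 2 alone. In NL-shGFP they did not match, since replicate 5 had the lowest sum of the 12, at 1027 CPM. Its sum of the 40 genes was the highest of that group, at 2899 CPM. Crypt stem cell markers fell in 7 of 8 cases in FL-shGFP and rose in 6 of 8 with shAlpl, and their sum was 190.1 to 271.1 CPM, 41.5 to 80.9 CPM and 68.8 to 190.1 CPM in the 3 groups. Against NL-shGFP, 3 of the 8 were still lower in FL-shAlpl, beside 8.12% of all tested genes.

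Markers of T and NK cells went opposite to the nucleolar genes in both comparisons, and those of other immune and stromal cells did so in part. T and NK cell markers rose in 12 of 13 cases in FL-shGFP and fell in 13 of 13 with shAlpl, and their sum was 31.7 to 104.6 CPM, 133.9 to 327.7 CPM and 27.1 to 60.1 CPM. Against NL-shGFP, 4 of the 13 were lower in FL-shAlpl and 1 was higher, beside 8.12% and 9.31% of all tested genes. Of 9 myeloid markers 6 rose in FL-shGFP and 5 fell with shAlpl (sums of 161.4 to 396.9, 372.9 to 1110 and 144.2 to 373.6 CPM). Of 4 tested smooth muscle markers 3 rose and 3 fell (sums of 1.27 to 2.79, 4.58 to 18.6 and 1.81 to 3.39 CPM), and of 4 tested endothelial markers 3 rose and 2 fell (sums of 1.79 to 3.91, 4.54 to 9.28 and 2.12 to 3.71 CPM). Of 6 tested B and plasma cell markers 3 rose and 1 fell (sums of 6.23 to 21.9, 101.0 to 379.1 and 15.97 to 130.5 CPM), and 2 stayed above NL-shGFP in FL-shAlpl. Of 6 fibroblast markers 2 rose in FL-shGFP, none fell with shAlpl (edgeR, smallest adjusted p = 0.302, and none at an unadjusted p below 0.05), and 2 stayed above NL-shGFP in FL-shAlpl, with sums of 8.28 to 55.4, 53.6 to 336.8 and 18.9 to 297.4 CPM. These counts stand beside 25.1% of all tested genes that rose in FL-shGFP and 17.9% that fell with shAlpl. In FL-shAlpl against NL-shGFP 9.31% of all tested genes were higher. No listed marker was at 0 in all libraries of a group. Epithelial markers summed to 14020, 18460 and 15810 CPM on average. Of these 11 markers 7 rose and 1 fell in FL-shGFP, beside 25.1% and 21.6% of all tested genes. With shAlpl 1 rose and 3 fell, beside 18% and 17.9%. Against NL-shGFP, FL-shAlpl had 4 higher and 0 lower, beside 9.31% and 8.12%. The part of cell makeup, proliferation or the mitochondrial share in the change of the 40 genes was not tested. Leaving the mitochondrially encoded genes out of the library sizes and the fit moved the lower calls to 32 and left the 39 higher calls with shAlpl as they were.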

How the data were processed

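RNA of colonic crypts was column-purified and enriched for mRNA, per the labels' protocols, and HISAT2 was used, per the submitters' processing notes. For the counting tool, strand setting and annotation, no source used here gives a name. The authors deposited raw read counts per gene and FPKM. The deposited FPKM equal counts divided by gene length and library total, and 98.2% of the implied lengths equal the exon lengths of GENCODE M21 (GRCm38). Counts from 1 to 12 were even in 72.4% to 77.2% of cases per library, so small counts may hold fewer molecules than they show.

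Groups came from the sample labels. An edgeR 4.0.16 quasi-likelihood model (R 4.3.3, robust, TMM factors, 12 residual degrees of freedom) was fitted to all 15 samples over the 17404 genes that passed filterByExpr, with Benjamini-Hochberg adjustment over all of them and a threshold of 0.05. The other 15535 genes were not tested, and 698 identifiers had no symbol. CPM are TMM-scaled. The common biological coefficient of variation was 30.2%. Differences between libraries, more than depth, therefore limit the precision for these genes. Single values per library were compared with exact permutation tests, 5 against 5, whose smallest p is 0.00794. Alternatives were other scaling factors and filters, DESeq2 1.42.0, limma 3.58.1 on log2(FPKM + 1), a 2-group fit, a replicate block, fits without mitochondrially encoded genes or with the close NL-shGFP libraries (1 with 2, 3 with 4) summed, and leaving out each sample.

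The 40 genes and all lists were chosen with earlier results of these data known. Values by library are given for the 2 genes with the smallest p in each of 8 role groups (FL-shGFP against NL-shGFP), the 6 with the smallest p in FL-shAlpl against FL-shGFP, the 3 with the highest FPKM and those nearest the threshold on either side. Of the other pathway lists, up to 2 called rises and 2 called falls of smallest p are named. Near-identical copies were sequences with at least 90% identity over 300 bases in the annotated transcripts.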

Additional observations from a re-analysis of the deposited data

Results flagged for a closer look

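In 12 of 159 groups of 5 libraries examined (7.5%), the highest library stood apart from the rest, by a gap to its neighbour of more than 0.71 of the range of the group. Chance gives about 1 in 20 for independent, normally spread groups. The groups examined here are not independent, since all genes share the same libraries and the sums hold the same genes. Of the 12, 9 belong to NL-shGFP replicate 5. In it Polr1a was at 42.6 CPM with the next library at 34.2, Nop2 at 43.5 CPM with the next at 32.8, Noc3l at 22.3 CPM with the next at 15.04, Mybbp1a at 125.9 CPM with the next at 98.8, and Myc at 67.1 CPM with the next at 44.7. The summed level of the 40 genes was 2899 CPM there with the next at 2462, that of the RNA polymerase I genes 203.3 CPM with the next at 168.3, that of the box C/D genes 244.8 CPM with the next at 217.5, and that of the other large subunit genes 546.5 CPM with the next at 431. Without this library 27 of the 40 genes were called lower in FL-shGFP. FL-shAlpl replicate 1 stood apart for Nop58, at 120.8 CPM with the next at 73.9, and for Gnl3, at 71.7 CPM with the next at 34.5. Without it 33 of the 40 genes were called higher with shAlpl. In FL-shGFP replicate 5 the summed crypt stem cell markers were at 80.9 CPM with the next library at 48.8. These libraries were kept in all results, and what sets them apart was not tested.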

How the results depend on the processing

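The count of the 40 genes called lower in FL-shGFP, 31, ran from 21 with library totals alone to 37 with only the 2 groups fitted, and from 26 to 39 on leaving out each library (without FL-shGFP replicate 1 or 5). With the close NL-shGFP libraries summed it was 25, and 6186 genes were called in all in that comparison. The 39 called higher with shAlpl ran from 32 to 39, on leaving out a library too. The same genes were called under all 21 alternatives in 21 of 31 and 32 of 39 cases. No alternative called a gene of the 40 in the opposite direction or in FL-shAlpl against NL-shGFP. The median log2 fold changes, -0.80, 0.95 and 0.10, ran on leaving out a library from -0.95 to -0.72, from 0.77 to 1.11 and from -0.05 to 0.17. All genes called were 8128, 6261 and 3035. On leaving out a library they ran from 6841 to 8816, from 4635 to 7158 and from 1979 (without FL-shAlpl replicate 2) to 3523, and the last count was 1340 with the close NL-shGFP libraries summed, which leaves fewer samples.

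Signs that turned belonged to values that passed no test. Taf1d with shAlpl ran on leaving out a library from -0.0469 (without FL-shAlpl replicate 1) to 0.3605 (without FL-shGFP replicate 5). Mnt in FL-shGFP was 0.0051 with library totals and 0.0103 with limma on FPKM. Myc in FL-shAlpl against NL-shGFP was 0.0208 with library totals and 0.0382 with limma on FPKM, and ran on leaving out a library from -0.2241 (without FL-shAlpl replicate 1) to 0.0693 (without NL-shGFP replicate 5). The E-box share was 5.71% over the bases before the start alone. Replicate numbers did not pair the samples throughout (same-number correlations from -0.498 to 0.401), and the labels state no pairing. In FL-shGFP against NL-shGFP, replicates 1, 2 and 5 correlated best with the library of the same number (0.204, 0.162 and 0.401). Replicates 3 and 4 did not. For FL-shAlpl this held for replicate 3 against FL-shGFP and for replicate 1 against NL-shGFP alone. With a replicate block the calls among the 40 genes were 28 lower, 35 higher and none, and those over all genes 7295, 5074 and 2457.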
